A study of Mus musculus with 1 sample.

Results

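The 10 genes described here, of TGF-beta and BMP signaling, were followed across the cell classes of the young mouse pancreas: the TGF-beta ligands Tgfb1, Tgfb2 and Tgfb3, the TGF-beta receptors Tgfbr1, Tgfbr2 and Tgfbr3, the BMP ligands Bmp4 and Bmp5, the secreted BMP antagonist Grem1, and Ltbp1, which encodes a latent TGF-beta binding protein. These 10 of the 32285 genes in the count table were taken by symbol. The cells came from dissociated pancreata of 5 to 6 Scap f/f mice, 2 weeks old, the genotype in which loxP sites flank Scap and, without a Cre, leave the gene intact. The pancreata were pooled into 1 library of 10x 3′ single cell RNA sequencing, so mice could not be told apart, no value has a replicate, and no test was made. Scap knockout pancreata were not analysed here.

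TGF-beta ligands are secreted in a latent form, held by their propeptide and tethered to the extracellular matrix through latent binding proteins such as LTBP1, and are released by integrins and other factors. The freed ligand binds TGFBR2, which recruits and phosphorylates TGFBR1, and SMAD2 and SMAD3 then carry the signal to the nucleus, while TGFBR3, betaglycan, presents ligand to the signaling pair. BMP ligands signal through related receptors and SMAD1, SMAD5 and SMAD9, and antagonists such as gremlin hold them away from their receptors. In the pancreas these pathways are known for their roles in mesenchymal cells, in fibrosis and in the growth and differentiation of the exocrine epithelium.

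The library held 11789 barcodes and 51540177 unique molecular identifiers (UMIs), and 10947 cells with 49202966 UMIs were kept. The median kept cell held 2650 UMIs from 1326 genes. Cells were put into classes by the share of their UMIs that fell on marker genes, so a class is a range of marker share and not a proven cell type. In all, 9267 cells, or 84.7%, passed the gate of a single class, 1063 passed several gates and 432 passed none. Within 20% of the cutoff lay 4 to 109 cells per class, counting those left out, with 53 near the cutoff for pericytes. The 10 classes of at least 50 cells were fibroblasts (5622 cells), acinar cells (972), T cells (892), mesothelial cells (522), red blood cells (404), B cells (362), endothelial cells (135), smooth muscle cells (79), pericytes (64) and duct cells (61). A further 185 cells passed both the pericyte and the endothelial gate, with a median of 6643 UMIs against 1544.5 in pericytes and 3026 in endothelial cells, and were kept apart.

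Markers bore out most class names, with limits that touch the results. In smooth muscle cells all 5 smooth muscle markers were detected, at a summed level of 14836 CPM, and the 6 fibroblast markers summed to 2422 CPM, against 42458 CPM in fibroblasts. The 6 pericyte markers stood at 8422 CPM in pericytes and at 1780 CPM in smooth muscle cells, while pericytes held the smooth muscle markers at 2634 CPM and the fibroblast markers at 3364 CPM, and the part of this in the differences between both classes was not tested. Of the 522 mesothelial cells, 494 also passed the fibroblast gate, and the fibroblast markers summed to 24451 CPM in the class, so mesothelial values describe cells that carry both sets of markers. Duct cells held acinar markers at 32035 CPM. Acinar markers were found in every class, at 3937 to 6590 CPM in the other 8 classes of at least 50 cells, and no value was corrected for RNA free in the suspension. Scrublet, a doublet caller, marked 8.62% of mesothelial cells and 2.22% of fibroblasts.

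Levels are given as CPM, the UMIs of a gene summed over the cells of a class and scaled to 1000000 UMIs of that class, with an exact 95% Poisson interval in brackets. A fold between classes has an exact conditional 95% interval. All intervals cover counting error only, not variation between mice. Red blood cells, which should lack these transcripts, serve as a gauge of free RNA, although the haemoglobin markers stood at 780040 CPM in them, so a level per UMI and a number of UMIs per cell can place a class differently against this gauge.

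The TGF-beta ligand genes Tgfb1 and Tgfb2 were highest in different classes, and so were the BMP ligand genes Bmp4 and Bmp5, so the 250 bases before their starts are shown. The sequences are from RefSeq, build GRCm38.p6, where 8 of the 10 genes had an entry. Capitals mark matches, on either strand, to any of 8 motifs searched: the GC box GGGCGG, the TATA box TATAAA, the E-box CACGTG, the ETS site CCGGAAG, the cyclic AMP response element TGACGTCA, the AP-1 site TGANTCA, the sterol regulatory element TCACNCCAC and the palindromic SMAD element GTCTAGAC. No 2 matches to different motifs overlapped in these windows.
Tgfb1, chr7:25686752-25687001, plus strand: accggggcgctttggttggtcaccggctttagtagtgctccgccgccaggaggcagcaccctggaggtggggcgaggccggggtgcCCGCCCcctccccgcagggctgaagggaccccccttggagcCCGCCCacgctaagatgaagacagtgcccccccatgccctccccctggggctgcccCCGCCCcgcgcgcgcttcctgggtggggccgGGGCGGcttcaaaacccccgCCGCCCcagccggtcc
Tgfb2, chr1:186705990-186706239, minus strand: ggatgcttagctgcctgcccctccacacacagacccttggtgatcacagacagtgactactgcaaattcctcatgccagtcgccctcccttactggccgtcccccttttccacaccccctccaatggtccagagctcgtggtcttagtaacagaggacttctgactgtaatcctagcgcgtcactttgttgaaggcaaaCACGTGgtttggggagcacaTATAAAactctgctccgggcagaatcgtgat
Bmp4, chr14:46390670-46390919, minus strand: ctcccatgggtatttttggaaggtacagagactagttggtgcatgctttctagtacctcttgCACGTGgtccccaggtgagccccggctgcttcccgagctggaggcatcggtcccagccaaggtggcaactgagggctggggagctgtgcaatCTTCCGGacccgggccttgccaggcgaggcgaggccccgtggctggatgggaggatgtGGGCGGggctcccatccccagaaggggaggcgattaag
Bmp5, chr9:75775115-75775364, plus strand: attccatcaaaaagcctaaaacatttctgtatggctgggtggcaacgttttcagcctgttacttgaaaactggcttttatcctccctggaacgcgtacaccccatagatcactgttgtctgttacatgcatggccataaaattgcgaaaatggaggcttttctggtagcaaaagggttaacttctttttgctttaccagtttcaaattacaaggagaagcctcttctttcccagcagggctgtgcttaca

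The Tgfb1 window was 75.2% G and C and held 5 GC boxes, the nearest beginning 16 bases before the start, and no TATA box. The Tgfb2 window was 53.6% G and C and held a TATA box beginning 31 bases before the start and an E-box beginning 51 bases before it. The Bmp4 window, at 63.2% G and C, held a GC box, an E-box and an ETS site, whereas none of the 8 motifs was found in the Bmp5 window, at 42.8%. Over all 32851 windows of the same length, with a median of 52.4% G and C, the GC box was found in 32.7%, the TATA box in 12.4%, the ETS site in 6.91% and the E-box in 6.02%. These matches are a description of the letters and not of factor binding.

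**Figure D1:**
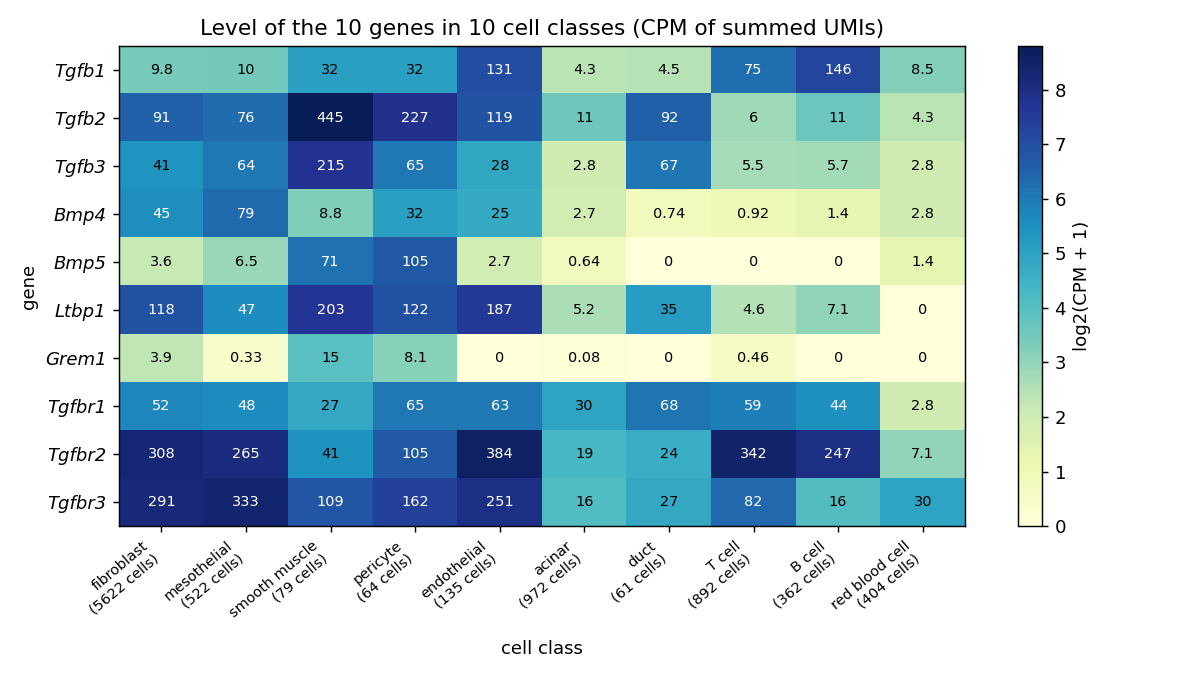
Level of each of the 10 genes (rows) in the 10 cell classes of at least 50 cells (columns), in CPM of summed UMIs. The number in each cell is the CPM and the color its log2(CPM + 1). Smooth muscle cells held the highest Tgfb2 level, 445 CPM, while Tgfb1 was highest in B cells, at 146 CPM.

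Tgfb1 was highest in B cells, endothelial cells and T cells among the 10 classes of at least 50 cells. It lies at chr7:25687002-25705077 on the plus strand of mm10 and no other annotated gene overlaps it. Its level was 146 CPM in B cells (102 UMIs, 119 to 177), 131 in endothelial cells (98 UMIs, 106 to 159) and 74.7 in T cells (162 UMIs, 63.6 to 87.1). B cells and endothelial cells did not differ beyond counting error (1.12-fold, 0.84 to 1.49), and endothelial cells stood above T cells (1.75-fold, 1.35 to 2.26). A single endothelial cell gave 12 of the 98 endothelial UMIs, so the endothelial intervals, taken over UMIs, are too narrow. Pericytes and smooth muscle cells were both at 32.4 CPM, from 4 and 11 UMIs. Fibroblasts (9.75 CPM, 188 UMIs), mesothelial cells (10.1 CPM) and red blood cells (8.53 CPM, 3.13 to 18.6) were close together, and acinar and duct cells were at 4.26 and 4.45 CPM. Per UMI the fibroblast level lay within the interval of red blood cells, the gauge of free RNA, whereas the counts behind it were 188 UMIs in 5622 fibroblasts and 6 UMIs in 404 red blood cells. Among classes with under 50 cells, 24 macrophages held 19 Tgfb1 UMIs, or 198 CPM (119 to 310). The 23 neutrophils held 7 UMIs, or 133 CPM (53.5 to 274), and the 47 dendritic cells 6 UMIs, or 30.1 CPM. In clusters of all kept cells, 121 cells led by Lyz2, Cd74 and H2-Aa held 67 Tgfb1 UMIs, or 185 CPM. When every cell was thinned to 800 UMIs, 12.4% of B cells, 5.19% of endothelial cells and 4.15% of T cells still held a Tgfb1 UMI, against 0.68% of fibroblasts and 0.50% of red blood cells, where the shares before thinning were 23.2%, 34.1%, 14.4%, 3.11% and 1.24%.

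Tgfb2 was highest in the smooth muscle and pericyte classes. The gene lies at chr1:186622792-186705989 on the minus strand, and an antisense gene within it, Gm29491, had 3 UMIs in the whole table. Smooth muscle cells held 445 CPM (151 UMIs, 377 to 522), pericytes 227 (28 UMIs, 151 to 328) and endothelial cells 119 (89 UMIs, 95.3 to 146). The smooth muscle level was 351 CPM at an upper limit of 10000 UMIs and 342 CPM as a mean of per-cell CPM, both under its interval. The step to pericytes at these settings is not given here. In the main setting smooth muscle cells stood above pericytes by 1.96-fold (1.30 to 3.05) and pericytes above endothelial cells by 1.91-fold (1.20 to 2.96). Endothelial cells did not differ from duct cells, the next class, beyond counting error (1.29-fold, 0.97 to 1.71). Duct cells at 92.0 CPM and fibroblasts at 91.0 CPM did not differ beyond counting error, mesothelial cells followed at 75.7 CPM, and a gap of 6.62-fold (3.31 to 15.5) separated these from B cells. B, acinar, T and red blood cells lay between 4.27 and 11.4 CPM. The 185 cells that passed both the pericyte and the endothelial gate held 403 Tgfb2 UMIs, or 240 CPM (217 to 264), and 48 Schwann cells held 28, or 278 CPM (185 to 402). Fibroblasts contributed 1755 of the 3367 Tgfb2 UMIs in kept cells, so they were the main source by number although not by level.

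Tgfb3 followed Tgfb2 in its leading class. It lies at chr12:86056745-86079041 on the minus strand, where Ttll5 overlaps it on the opposite strand, with 1660 UMIs in the table. Smooth muscle cells held 215 CPM (73 UMIs, 169 to 270), 3.22-fold above duct cells (2.33 to 4.44). Duct cells (66.8 CPM), pericytes (64.8 CPM, 8 UMIs) and mesothelial cells (64.0 CPM) did not differ from one another beyond counting error. Fibroblasts were at 40.6 CPM, below mesothelial cells by 1.57-fold (1.34 to 1.84), endothelial cells at 28.0 CPM, and B, T, red blood and acinar cells between 2.81 and 5.72 CPM. A single duct cell gave 24 of the 90 duct UMIs of Tgfb3. Under an endothelial cutoff 5 times higher, tried after the data were seen, endothelial Tgfb3 was at 7.12 CPM on 3 UMIs.

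**Figure D2:**
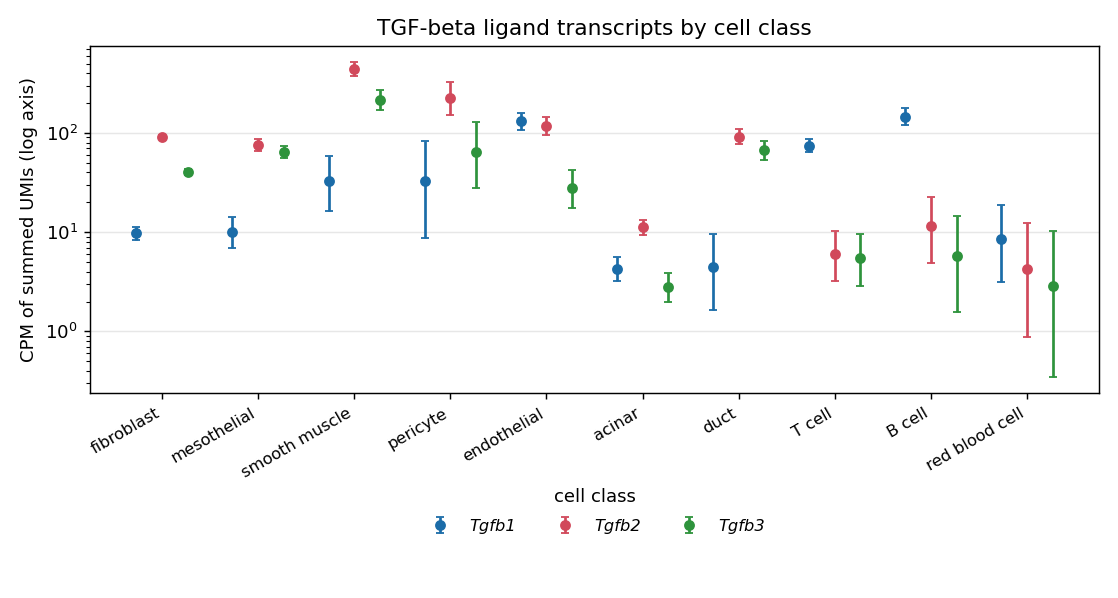
CPM of summed UMIs (log axis) of Tgfb1, Tgfb2 and Tgfb3 in 10 cell classes, with exact 95% Poisson intervals as bars. Tgfb1 points lie above the others in T and B cells and below them in fibroblast, mesothelial, smooth muscle, pericyte and duct cells.

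The makeup of the ligand UMIs differed between classes accordingly. Tgfb1 gave 86.6% of the Tgfb1, Tgfb2 and Tgfb3 UMIs of T cells (162 of 187, exact 95% interval 80.9 to 91.2%) and 89.5% of those of B cells (102 of 114, 82.3 to 94.4%). In fibroblasts Tgfb2 gave 64.4% (1755 of 2726, 62.5 to 66.2%), Tgfb3 28.7% and Tgfb1 6.90%. Smooth muscle cells had a Tgfb2 share close to that of fibroblasts, 64.3% (57.8 to 70.4%), whereas mesothelial cells and duct cells had more Tgfb3, at 42.7% (38.1 to 47.4%) and 40.9% (34.3 to 47.7%). As 1 duct cell gave 24 of the 90 duct Tgfb3 UMIs, the duct interval, taken over UMIs, is too narrow. Endothelial cells held Tgfb1 and Tgfb2 in near equal parts, 47.1% and 42.8%. These shares compare classes, since capture at the 3′ end may differ between genes.

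Bmp4 had its highest levels in the mesothelial and fibroblast classes. The gene lies at chr14:46383520-46390669 on the minus strand, and the antisense gene Gm15222 that overlaps it had 66 UMIs in all barcodes. Mesothelial cells held 79.3 CPM (243 UMIs, 69.7 to 89.9), 1.75-fold more than the 45.4 CPM of fibroblasts (876 UMIs, 1.51 to 2.01). Pericytes were at 32.4 CPM on 4 UMIs and endothelial cells at 25.3 CPM on 19, neither of which could be ordered against its neighbor. Smooth muscle cells had 3 UMIs, 8.84 CPM, and acinar, duct, T, B and red blood cells lay between 0.74 and 2.84 CPM. In mesothelial cells held to 5 times the marker share, a cutoff tried after the data were seen, 181 cells remained and their Bmp4 level was 87.9 CPM.

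Bmp5 was at its highest level in pericytes and smooth muscle cells, although fibroblasts held more of its UMIs. It lies at chr9:75775364-75900310 on the plus strand, with an overlapping antisense gene, Gm26903, at 14 UMIs. Pericytes held 105 CPM (13 UMIs, 56.1 to 180) and smooth muscle cells 70.7 CPM (24 UMIs, 45.3 to 105), and these did not differ beyond counting error (1.49-fold, 0.70 to 3.05). Smooth muscle cells stood 10.8-fold above mesothelial cells (5.74 to 20.7), which held 6.53 CPM. Fibroblasts were at 3.58 CPM (69 UMIs), endothelial cells at 2.67 CPM (2 UMIs) and acinar cells at 0.64 CPM (8 UMIs). No Bmp5 UMI was found in duct, T or B cells, where 3 counts would be 2.23, 1.38 and 4.29 CPM. The cells that passed both the pericyte and the endothelial gate held 98 of the 275 Bmp5 UMIs, at 58.3 CPM (47.3 to 71.0), and the 135 cells with the endothelial gate alone held 2. Bmp4 and Bmp5 thus differed in order between mesothelial and smooth muscle cells, since mesothelial cells were 8.97-fold higher for Bmp4 (3.03 to 43.8).

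Grem1 was rare and found mostly in cells of mesenchymal gates. It lies at chr2:113746164-113758646 on the minus strand with no overlapping gene. Only 80 cells, 0.73% of those kept, held any of its 128 UMIs, and 1 fibroblast held 9 of them. Fibroblasts had 76 UMIs, 3.94 CPM (3.11 to 4.93), smooth muscle cells 5 UMIs, 14.7 CPM (4.78 to 34.4), and pericytes 1 UMI. Acinar, mesothelial and T cells had 1 UMI each. Endothelial, duct, B and red blood cells had none, where 3 counts would be 4.0, 2.23, 4.29 and 4.27 CPM. Most of the remaining Grem1 UMIs were in cells that passed several gates: 17 in 41 cells of fibroblast and smooth muscle gates, at 78.9 CPM (45.9 to 126), and 17 in 101 cells of fibroblast and pericyte gates, at 46.0 CPM (26.8 to 73.7). Scrublet marked 31.0% of all cells that passed several gates. Bmp5 was also high in the cells of fibroblast and smooth muscle gates, at 55.7 CPM (12 UMIs, 28.8 to 97.2) against 3.58 CPM in fibroblasts.

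Ltbp1, at chr17:75005568-75392512 on the plus strand, was highest in smooth muscle, endothelial, pericyte and fibroblast classes. Its level was 203 CPM in smooth muscle cells (69 UMIs, 158 to 257), 187 in endothelial cells (140 UMIs, 157 to 220), 122 in pericytes (15 UMIs, 68.0 to 201) and 118 in fibroblasts (2275 UMIs, 113 to 123). No neighbors among these 4 classes differed beyond counting error, but smooth muscle cells stood above fibroblasts by 1.72-fold (1.34 to 2.19). A single endothelial cell gave 19 of the 140 endothelial UMIs, so the endothelial interval, taken over UMIs, is too narrow. Under an endothelial cutoff 5 times higher, tried after the data were seen, the endothelial level was 142 CPM (109 to 183). Fibroblasts stood 2.53-fold above mesothelial cells (2.13 to 3.02), which were at 46.7 CPM, and duct cells were at 34.9 CPM. Under a mesothelial cutoff 5 times higher, also tried after the data were seen, mesothelial Ltbp1 was at 76.1 CPM (60.7 to 94.2), still under fibroblasts. Acinar, T and B cells were between 4.61 and 7.14 CPM and red blood cells had none, where 3 counts would be 4.27 CPM.

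**Figure D3:**
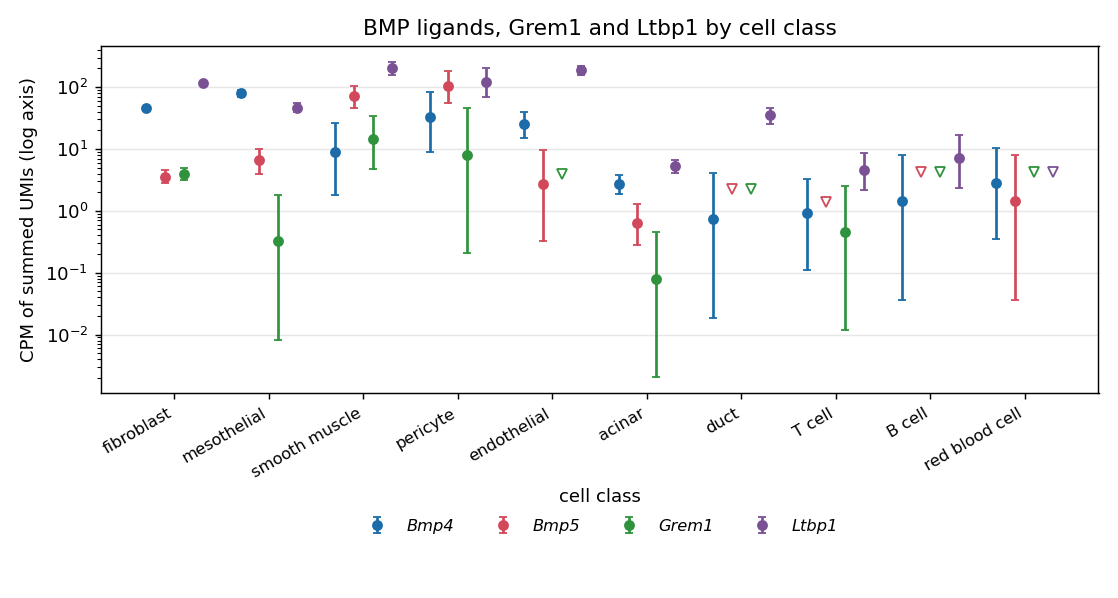
CPM of summed UMIs (log axis) of Bmp4, Bmp5, Grem1 and Ltbp1 in 10 cell classes, with exact 95% Poisson intervals as bars and open triangles at the level of 3 counts where no UMI was found. Bmp4 is highest in mesothelial cells, at 79.3 CPM, and Bmp5 in pericytes, at 105 CPM.

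Among the receptors, Tgfbr2 was widespread except in epithelial and smooth muscle cells. The gene, at chr9:116084293-116175360 on the minus strand, encodes the receptor that binds ligand and starts the signal. Endothelial cells held 384 CPM (288 UMIs, 341 to 431), T cells 342 (743 UMIs, 318 to 368), fibroblasts 308 (5938 UMIs, 300.3 to 316), mesothelial cells 265 and B cells 247. Neighbors in this order differed by 1.07-fold to 1.16-fold, and endothelial against T cells (1.12-fold, 0.97 to 1.29) and mesothelial against B cells (1.07-fold, 0.91 to 1.27) did not differ beyond counting error. Under an endothelial cutoff 5 times higher, tried after the data were seen, the 92 cells left held 332 CPM (279 to 392), under the T cell level. Under a mesothelial cutoff 5 times higher, also tried after the data were seen, the 181 cells left held 339 CPM (305 to 375). That interval holds the fibroblast level, so mesothelial cells were then not below fibroblasts. Pericytes were 2.35-fold lower than B cells (1.34 to 4.49), at 105 CPM, and smooth muscle cells lower again, at 41.3 CPM (14 UMIs, 22.6 to 69.2). Duct and acinar cells were at 24.5 and 18.6 CPM and red blood cells at 7.11 CPM. Smooth muscle cells, the class with the highest Tgfb2 and Tgfb3, thus had Tgfbr2 near the level of duct cells (1.69-fold, 0.83 to 3.24).

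Tgfbr1, the type I receptor gene at chr4:47353222-47414931 on the plus strand, varied least. Outside red blood cells the classes lay between 26.5 CPM, in smooth muscle cells on 9 UMIs, and 68.2 CPM, in duct cells on 92 UMIs. Pericytes, endothelial cells, T cells, fibroblasts, mesothelial cells and B cells followed duct cells in that order at 64.8, 62.6, 59.0, 52.3, 48.3 and 44.3 CPM, and no neighbors from duct cells to B cells differed beyond counting error. Duct cells stood above fibroblasts by 1.30-fold (1.04 to 1.61), mesothelial cells by 1.41-fold (1.08 to 1.84) and B cells by 1.54-fold (1.02 to 2.40). As 1 duct cell gave 11 of the 92 duct UMIs, these intervals are too narrow. Acinar cells were at 29.6 CPM (368 UMIs, 26.6 to 32.8) and red blood cells at 2.84 CPM.

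Tgfbr3, the betaglycan gene at chr5:107106570-107289629 on the minus strand, was highest in mesothelial cells (333 CPM, 1019 UMIs, 312 to 354), fibroblasts (291 CPM, 5607 UMIs, 283 to 299) and endothelial cells (251 CPM, 188 UMIs, 216 to 289). The step from mesothelial cells to fibroblasts was 1.14-fold (1.07 to 1.22). Under a mesothelial cutoff 3 times higher the level was 317 CPM (294 to 341). It was not above fibroblasts under a cutoff 5 times higher, where the 181 cells left held 281 CPM (250.4 to 314), an interval that holds the fibroblast level. Pericytes followed at 162 CPM, smooth muscle cells at 109 CPM and T cells at 81.6 CPM (177 UMIs, 70.0 to 94.5). Red blood cells held 29.9 CPM (21 UMIs, 18.5 to 45.6), and duct, acinar and B cells were no higher per UMI, at 26.7, 16.4 and 15.7 CPM. The counts were 36 UMIs in 61 duct cells, 204 in 972 acinar cells and 11 in 362 B cells, against 21 in 404 red blood cells, so duct and acinar cells held more Tgfbr3 UMIs per cell than the gauge of free RNA and B cells fewer. T cells stood above B cells by 5.19-fold (2.83 to 10.6).

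**Figure D4:**
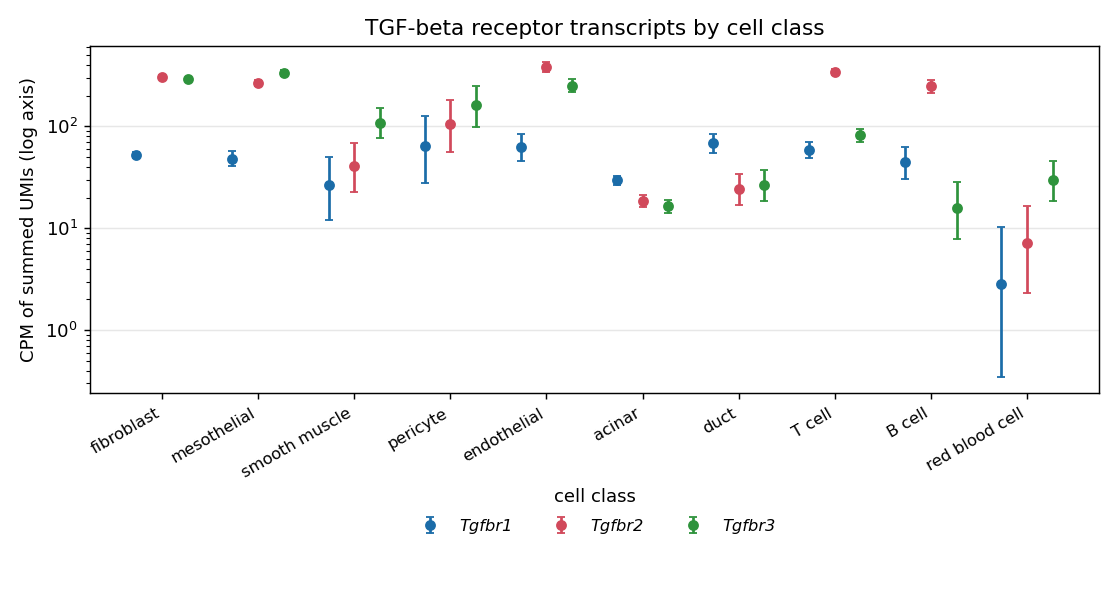
CPM of summed UMIs (log axis) of Tgfbr1, Tgfbr2 and Tgfbr3 in 10 cell classes, with exact 95% Poisson intervals as bars. Tgfbr2 falls from 384 CPM in endothelial cells to 41.3 CPM in smooth muscle cells and 18.6 CPM in acinar cells, while Tgfbr1 is within 26.5 to 68.2 CPM outside red blood cells.

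Fibroblasts were compared with all other classed cells as a whole, of whose UMIs 56.0% were from acinar cells. The members Grem1 (9.74-fold, 4.87 to 22.1) and Ltbp1 (5.24-fold, 4.75 to 5.78), 2 of 10, were at least 4-fold higher in fibroblasts, as were 7.66% of the 14951 genes with at least 50 UMIs. Of the 10 members 0 were 4-fold lower, against 13.3% of genes. At 2-fold, 7 members were higher, beside 18.4% of genes, and Tgfb1 was lower, beside 19.4%. Tgfbr3 was 3.70-fold higher, Bmp4 3.25-fold, Tgfbr2 2.88-fold, Tgfb2 2.47-fold, Tgfb3 2.04-fold and Tgfbr1 1.34-fold, Bmp5 did not differ beyond counting error (1.17-fold, 0.82 to 1.66) and Tgfb1 was lower, at 0.42-fold (0.36 to 0.50). The median over the 10 members was 2.67-fold and that over all genes tested 1.13-fold. With the digestive enzyme and haemoglobin genes left out of the denominator, Ltbp1 was 3.73-fold higher and so under 4-fold, Tgfb2 and Tgfb3 were under 2-fold, at 1.76-fold and 1.45-fold, and Tgfbr1 turned to 0.95-fold. By means of per-cell CPM, Grem1 was under 4-fold, at 3.63-fold, Tgfbr2 under 2-fold, at 1.64-fold, and Tgfb1 more than 4-fold lower, at 0.23-fold.

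In smooth muscle cells 4 members, Tgfb2, Tgfb3, Bmp5 and Grem1, were at least 4-fold higher than in all other classed cells, beside 5.55% of genes, and Tgfbr2 was the only member 4-fold lower, beside 4.84%. The Grem1 fold rested on 5 smooth muscle UMIs, with an interval from 2.40-fold to 18.4-fold. In acinar cells 9 members were at least 4-fold lower, all but Tgfbr1, beside 25.7% of genes, with a median over the members of 0.069-fold against 0.48-fold over all genes. The acinar denominator holds the digestive enzymes, and the 6 acinar markers alone stood at 248800 CPM in acinar cells. No acinar fold without enzyme UMIs is given here. Tgfb1 was at least 4-fold higher in endothelial, T and B cells, beside 6.14%, 6.51% and 6.29% of genes, and Bmp5 in pericytes, beside 6.98%. Tgfbr2, Tgfbr3 and Bmp4 were at least 4-fold lower in duct cells, beside 8.29%, and Grem1 in mesothelial cells, beside 8.59%. Of the 10 members 5 were 4-fold lower in T cells, beside 20.3%, and 5 in B cells, beside 13.8%, with Tgfb2, Tgfb3, Bmp4 and Ltbp1 among them in both.

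Fibroblasts were not uniform for these genes. They were split by UMIs summed over marker lists, with at least 2 UMIs placing a cell, so 1 gene of a list could suffice. The Pi16 Pcolce2 group (1925 cells) had the list Pi16, Pcolce2, Dpp4 and Sema3c. The lists of the other groups were Mfap4 and Meox2 (1057 cells) and Rspo3 and Cxcl14 (181 cells). Another 1092 cells passed for more than 1 group and 1367 for none. Tgfb2 was at 157 CPM (1184 UMIs, 148 to 166) in the Pi16 Pcolce2 cells and at 34.9 CPM (105 UMIs, 28.6 to 42.3) in the Mfap4 Meox2 cells, a ratio of 4.49 (3.68 to 5.54). Tgfb3 went the opposite way, with 21.5 CPM in the former and 68.2 CPM in the latter, 3.18-fold higher (2.57 to 3.93). The ligand pair was thus divided between the Pi16 Pcolce2 and the Mfap4 Meox2 cells, whereas smooth muscle cells held both at high level. The division did not extend to all fibroblasts. Cells that passed for more than 1 group held Tgfb2 at 59.5 CPM and Tgfb3 at 53.4 CPM, and the Rspo3 Cxcl14 cells held them at 41.2 and 35.3 CPM.

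Ltbp1 and Tgfbr2, as Tgfb2, were higher in the Pi16 Pcolce2 than in the Mfap4 Meox2 cells. Ltbp1 was at 168 CPM in the Pi16 Pcolce2 cells, 2.37-fold above the Mfap4 Meox2 cells (2.05 to 2.75), and Tgfbr2 was at 401 against 182 CPM, 2.20-fold higher (2.01 to 2.42). Bmp5 and Grem1 were nearly absent from the Pi16 Pcolce2 cells, with 3 and 5 UMIs, and were at 9.64 CPM (29 UMIs) and 8.31 CPM (25 UMIs) in the Mfap4 Meox2 cells, 24.3-fold (7.52 to 124) and 12.6-fold (4.72 to 42.0) higher. Bmp4 was 1.63-fold higher in the Mfap4 Meox2 cells (1.33 to 1.98), at 56.2 CPM, and reached 76.4 CPM (39 UMIs, 54.3 to 104) in the Rspo3 Cxcl14 cells, which did not differ from the Mfap4 Meox2 cells beyond counting error (1.36-fold, 0.93 to 1.94). Tgfbr3 was at 347 CPM in the Rspo3 Cxcl14 cells and 311 CPM in the Pi16 Pcolce2 cells, which did not differ beyond counting error (1.11-fold, 0.95 to 1.30), and lower in the Mfap4 Meox2 cells, at 214 CPM, while Tgfbr1 varied only from 45.8 to 62.7 CPM over the 3 groups. Fibroblasts that passed for more than 1 group held 41 Grem1 UMIs, or 7.32 CPM (5.25 to 9.93), more UMIs than the Mfap4 Meox2 cells. In clusters of all kept cells, 78 of the 128 Grem1 UMIs, at 43.3 CPM, fell in 1 cluster of 551 cells. Fibroblasts were 89.3% of that cluster, which was led by Eln, Mfap4, Mgp and Fmo2. Another 19, at 30.8 CPM, fell in a cluster of 169 cells led by Acta2, Tagln and Myh11. Ltbp1 did not follow Tgfb2 in all clusters, since the 551 cells held Ltbp1 at 143 CPM and Tgfb2 at 36.7 CPM. A fibroblast cluster of 824 cells led by Opcml and Efemp1 held both high, at 245 and 214 CPM. The 551 cells also held Tgfb3 at 121 CPM and 11 Bmp5 UMIs. A fibroblast cluster of 860 cells led by Mfap4 and Ptn held 33 Bmp5 but 4 Grem1 UMIs, with Tgfb3 at 46.0 CPM.

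**Figure D5:**
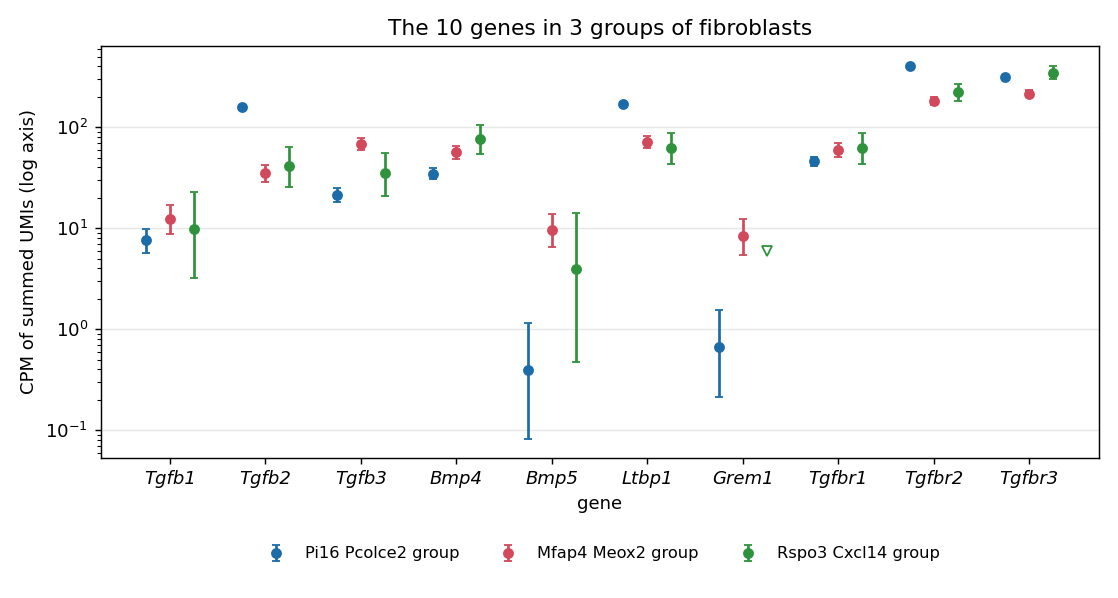
CPM of summed UMIs (log axis) of the 10 genes in 3 groups of fibroblasts, with exact 95% Poisson intervals as bars and an open triangle at the level of 3 counts where no UMI was found. Tgfb2, Ltbp1 and Tgfbr2 are highest in the Pi16 Pcolce2 group, and Tgfb3, Bmp5 and Grem1 in the Mfap4 Meox2 group.

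The same cell could also be asked for pairs of genes. In fibroblasts thinned to 800 UMIs, Ltbp1 was found in 11.2% of 295 cells with a Tgfb2 UMI (7.83 to 15.4%) and in 7.0% of the 5327 cells without (6.33 to 7.72%). Before thinning the shares were 43.5% and 18.5%, with median depths of 4281 and 2414 UMIs. The cells behind the thinned shares still differed in full depth, with medians of 3345 and 2627 UMIs. Both genes were higher in the Pi16 Pcolce2 cells, and the part of the fibroblast groups in this difference was not tested. For Tgfb3 the thinned shares with Ltbp1 were 9.30% (5.41 to 14.7%) in cells with a Tgfb3 UMI and 7.16% (6.49 to 7.87%) in those without. Tgfb3 itself was found in 2.71% of thinned cells with a Tgfb2 UMI (1.18 to 5.27%) and in 3.08% of those without (2.63 to 3.58%). Tgfbr2 was found as often with as without a Tgfbr1 UMI after thinning, 20.4% (15.5 to 26.1%) and 20.2% (19.2 to 21.3%), although the shares before thinning were 64.4% and 51.5%. Tgfbr3 likewise was found in 20.7% of thinned cells with Tgfbr2 and in 20.1% of those without. Thinned Grem1 cells numbered 11, none with a Bmp4 or Bmp5 UMI, which is too few to compare.

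The wider pathway showed where the members sat among their relatives. Of 14 TGF-beta family ligand genes with at least 50 UMIs, 9 were at least 4-fold higher in smooth muscle cells, beside 5.55% of genes: Tgfb2, Tgfb3, Bmp2, Bmp5, Bmp6, Gdf11, Gdf15, Inhba and Inhbb. The ligand list had a median of 7.62-fold there, against 0.93-fold over all genes. Gdf11, Gdf15 and Inhbb rested on 14, 9 and 5 smooth muscle UMIs, and the Inhbb interval ran from 3.44-fold to 27.3-fold. Bmp2 was at 141 CPM in smooth muscle cells (48 UMIs) and Inhba, the activin A subunit gene, at 150.3 CPM (51 UMIs), against 10.9 and 18.0 CPM in fibroblasts. In fibroblasts 2 of the 14 were 4-fold higher, beside 7.66% of genes, namely Bmp6 and Gdf10, the latter at 259 CPM against 20.9 CPM in mesothelial cells and 8.84 CPM in smooth muscle cells.

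Among 11 BMP and activin antagonist genes, those 4-fold higher in fibroblasts were Grem1, Chrdl1, Fst, which encodes follistatin, and Bmper, beside 7.66% of genes, and those 4-fold higher in mesothelial cells included Chrd, Twsg1 and Nbl1, beside 4.62%. In endothelial cells 7 of the 11 were 4-fold lower, beside 6.64%, and Bambi, a decoy receptor gene, was the only one of the list 4-fold higher. Sostdc1 was led by acinar cells, at 73.6 CPM.

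For the 13 genes of latent TGF-beta binding and activation, 5 were 4-fold higher in fibroblasts, beside 7.66% of genes: Ltbp1, Lrrc32, Emilin1 and the matrix genes Thbs1 and Fbn1, at 1193 and 1974 CPM. Itgb6 and Itgb8, subunits of the integrins that release TGF-beta, were the 2 genes of this list 4-fold higher in duct cells, beside 6.22% of genes, with Itgb6 at 57.1 CPM there (77 UMIs) and 5.22 CPM in acinar cells. Among 16 receptor genes the largest fold between the leading class and other classed cells was that of Amhr2, the anti-Mullerian hormone receptor gene, 76.7-fold in mesothelial cells (55 UMIs), and Bmpr1b and Acvr1c were the 2 that were 4-fold higher in acinar cells, beside 3.22% of genes, at 99.2 and 18.2 CPM.

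The 5 SMAD genes with at least 50 UMIs included Smad1 as the only one 4-fold higher in any class, in endothelial cells, at 288 CPM, beside 6.14% of genes. Of the 8 feedback and SMAD inhibitor genes, Smad7 was 4-fold higher in T cells (257 CPM), beside 6.51% of genes, and in smooth muscle cells, beside 5.55%, and Tgif1 in B cells, beside 6.29%, and duct cells, beside 6.22%. BMP response genes were 4-fold higher in 5 of 8 cases in smooth muscle cells (Id1, Id3, Id4, Atoh8 and Msx1), beside 5.55% of genes, and in 5 of 8 in pericytes, beside 6.98%. The count was 3 of 8 in mesothelial cells, beside 4.62%, 3 of 8 in endothelial cells, beside 6.14%, and 0 of 8 in fibroblasts, beside 7.66%. The smooth muscle calls of Atoh8 and Msx1 rested on 7 UMIs each, with intervals from 2.45-fold and 3.90-fold upward. In the 64 pericytes the Hey1 call rested on 6 UMIs (15.8-fold, 5.71 to 35.5), and the UMIs behind the other pericyte calls are not given here. Id1 was at 424 CPM in smooth muscle cells, 215 in endothelial cells, 156 in mesothelial cells and 12.0 in fibroblasts. Among the TGF-beta response genes, Postn was 29.5-fold higher in fibroblasts and Ccn2 30.2-fold higher in smooth muscle cells than in other classed cells.

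Across the 10 classes, the genes most like each member in log2(CPM + 1), out of 12028 genes, were taken by Pearson's r as a description. Bmp5 was most like Atp1b2, the muscle filament gene Des and Rgs4 (r = 0.97 to 0.98), and Des is also a smooth muscle marker used to set the classes. Bmp4 was most like Thbd, Colec12 and Gli3 (0.97 to 0.98), Tgfb1 like Abi3, Gimap6 and Il2rg (0.94 to 0.95) and Tgfb2 like Rbpms, Dip2a and Ift43 (0.98 to 0.99). Tgfb3 was most like Tsc2, Cdkn2c and Ift43, Tgfbr1 like Ttc1, Atf2 and Tmem260, Tgfbr2 like Gbp7, Jak1 and Rftn1, Tgfbr3 like Spsb1, Igfbp4 and Hoxb6, and Ltbp1 like Rras, Rilpl1 and Fam13c. The classes share 1 library and differ in depth and in number of cells, and Grem1 had under the 200 UMIs needed.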

How the data were processed

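Pooled pancreata of 2-week-old Scap f/f mice were dissociated with collagenase, depleted of dead cells and profiled in 1 library. Per the labels, the authors made the deposited UMI counts per gene and barcode with Cell Ranger 7.1.0 on mm10, and the study's methods give default settings, which in this version count intronic as well as exonic reads, so long genes can gain UMIs from introns. Barcodes with over 800 and under 100000 UMIs and under 15% mitochondrial UMIs were kept. A cell entered a class if it held at least 3 UMIs from at least 2 markers and a least share of marker UMIs (1% for fibroblast, 0.08% for mesothelial and duct, 0.1% for smooth muscle, pericyte, endothelial, T and B cell, 5% for acinar and red blood cell). Mesothelial overrode fibroblast, duct overrode acinar below 10% acinar UMIs, and smooth muscle against pericyte went by the larger share. Cells passing several gates were left out as possible doublets, and Scrublet, which marked 537 cells (4.91%), was an alternative. The shares were set after seeing the data, and the members and lists were chosen with earlier results of these data known. Levels, folds and exact intervals were computed in Python 3.11.15 with scipy 1.17.1, pandas 2.3.3 and scanpy 1.11.5 and tested on simulated data. Named were all 10 members, the members of 8 pathway lists with at least 50 UMIs, by largest fold, and the 3 genes most like each member. The text leaves out 1 of the list genes, which is not reported here. Other limits, gates, clusters and denominators were tried as alternatives. Gene positions are from GENCODE M21.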

Additional observations from a re-analysis of the deposited data

How the results depend on the processing

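A single pool without replicates leaves mouse-to-mouse variation unmeasured, and classes of 61 to 135 cells rest on few UMIs. No paired analysis was possible because there is 1 sample. Of 84 alternatives to the folds of fibroblasts over other classed cells and the counts of members past the fold, 50 stayed within the counting interval (or within 1.5 times the count) and 33 moved, among them Bmp5, whose fold had not differed from 1 beyond counting error and passed from 1.17 to 0.81 at the upper limit. At an upper limit of 10000 UMIs the folds were 0.24 for Tgfb1, 2.10 for Tgfb2, 1.69 for Tgfbr2, 2.45 for Tgfbr3, 2.52 for Bmp4, 0.81 for Bmp5, 4.0 for Grem1 and 4.39 for Ltbp1, and at a lower limit of 1500 UMIs 3.06 for Tgfbr2. Without enzyme and haemoglobin UMIs they were 0.30 for Tgfb1, 1.76 for Tgfb2, 1.45 for Tgfb3, 2.05 for Tgfbr2, 2.64 for Tgfbr3, 2.32 for Bmp4 and 3.73 for Ltbp1, and Tgfbr1 turned to 0.95. As means of per-cell CPM they were 0.23 for Tgfb1, 2.06 for Tgfb2, 2.43 for Tgfb3, 1.64 for Tgfbr2, 2.81 for Tgfbr3, 3.63 for Grem1 and 4.55 for Ltbp1. With classes from clusters, where smooth muscle, pericyte, endothelial and duct cells formed no named cluster, they were 3.63 for Tgfb2, 2.93 for Tgfb3, 2.63 for Tgfbr2, 3.40 for Tgfbr3, 2.81 for Bmp4, 2.25 for Bmp5, 45.4 for Grem1 and 9.95 for Ltbp1. A 2-fold threshold gave 7 members higher and 1 lower in fibroblasts, beside 18.4% and 19.4% of genes. The leading class of Tgfb1 became endothelial cells at a lower limit of 1500 UMIs, that of Tgfbr1 pericytes at a mitochondrial limit of 5%, and that of Tgfbr2 T cells by means of per-cell CPM. Smooth muscle cells led Bmp5 at the lower limit, and endothelial cells Tgfbr1 at the upper limit, because pericytes and duct cells then had under 50 cells. With classes from clusters Tgfb2 was led by Schwann cells, Tgfb3 and Bmp5 by mesothelial cells, Tgfbr1 by dendritic cells, Tgfbr2 by T cells, and Grem1 and Ltbp1 by fibroblasts. Levels in the leading class stayed within their interval in 83 of 89 alternatives, not all of which could move them, and 6 moved. Smooth muscle Tgfb2 fell from 445 CPM to 351 at the upper limit of 10000 UMIs and to 342 as a mean of per-cell CPM. Smooth muscle Tgfb3 fell from 215 CPM to 158 as a mean of per-cell CPM. Mesothelial Tgfbr3 rose from 333 CPM to 362 at that upper limit and fell to 281 under a cutoff 5 times higher. Endothelial Tgfbr2 fell from 384 CPM to 332 under a cutoff 5 times higher. Scrublet marked no smooth muscle, pericyte or duct cell, and clusters gave no level for a class without a named cluster. The 89 include stricter class cutoffs tried after the data were seen. The cause of the changes was not tested.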

Other observations

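Small classes outside the comparisons held few UMIs of the members. The 47 dendritic cells held 19 Tgfbr1 UMIs, or 95.3 CPM (57.4 to 149), and 11 Tgfbr2 UMIs, or 55.2 CPM (27.5 to 98.7), while 24 macrophages held 21 Tgfbr2 UMIs, or 219 CPM (136 to 335). The 48 Schwann cells held 30 Tgfbr2 UMIs, or 298 CPM (201 to 426), 27 Tgfbr3 UMIs, or 268 CPM (177 to 390), and no Bmp4, Bmp5 or Grem1 UMI. The 432 cells that passed no gate held 85 Tgfb1 UMIs, or 92.5 CPM (73.9 to 114).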
